A study of Nothobranchius furzeri with 16 samples.

Results

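The 300 longest expressed genes of the brain of the turquoise killifish (Nothobranchius furzeri, a short-lived annual fish) were described here with age. They were chosen among 10042 expressed genes, those with a mean of at least 10 counts per 1000000 counted reads (CPM) over the 8 RNA libraries, by the transcript length that a gene's counts and its deposited reads per kilobase and 1000000 counted reads (RPKM) imply. No age difference entered the choice. Old males of 26 weeks were compared with young males of 6 weeks, all of the strain MZM-04/10p, with no transgene or treatment named in the labels. Each age had 4 libraries of brain RNA, numbered I to IV, and 4 other libraries of ribosome footprints, the RNA fragments that ribosomes protect. The sample titles carry 22 for the old RNA libraries, and their age labels of 26 weeks were followed. Nothing in the labels ties a library to its own fish, so p-values measure the spread between libraries.

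A long messenger RNA takes more time to transcribe and splice and is more easily broken than a short one, and a protocol that captures RNA by its poly(A) tail reads a broken transcript mainly from its 3′ end. Brain is known for many such transcripts, because ion channels, synaptic scaffolds, spectrins, motor proteins and adhesion receptors are large proteins, and because neurons use long 3′ untranslated regions. Brain is a mixture of cell types, and fewer cells of a type cannot be told apart from less RNA per cell.

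The long genes had a median length of 12932 bases, against 3519 bases for the other 9742 expressed genes. The longest was Nfu_g_1_019261, at 88470 bases, followed at a wide distance by Nfu_g_1_021820 at 30370 bases. At the limit of the choice, the last 5 genes inside measured 11088 to 11116 bases and the first 5 outside 11057 to 11085 bases. These limits use the library's own total to convert RPKM, as the choice did. Most deposited RPKM had been scaled with another library's total, and after correction for this 285 of the 300 genes remained among the longest. All other lengths given here are the corrected ones. The long genes collected more counts than the rest, with a median mean level of 106 CPM against 42.3 CPM. Per kilobase they were lower, with a median of 7.81 RPKM (rescaled by each library's own total) against 13.7 RPKM. All 300 passed the filter on low counts in the age comparison, and the least counted one had 979 counts over the 8 libraries.

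A name, the symbol of the best human match, was known for 116 of the 300 (38.7%), against 37.2% of the other expressed genes. The names come mostly from lists ranked by age change in other fish, so that the named genes are no random part of the 300. The roles given below are those of the human and mouse proteins. Long genes made up 2.99% of the expressed genes. They made up more of several lists of large proteins, among them 35% of the 20 expressed genes for spectrins and giant cytoskeletal linkers, 33.3% of the 12 for DNA repair and giant kinases, 25% of the 16 for postsynaptic scaffolds and 21.8% of the 55 for ion channels. Of the 60 cytosolic ribosomal protein genes and of the markers of neurons, glia, microglia, progenitors, endothelium, blood, muscle and retina, 0 were among the long genes.

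The RNA libraries held 9461792 to 13771769 counts on 19968 to 20968 genes. Markers of neurons, radial glia and myelin were present in every library. Of 14 neuron markers, 2 were higher and 7 lower in old fish of replicates II to IV (median log2 fold change -0.72), although their sums overlapped at 2579 to 3043 CPM in old libraries, against 2394 to 2665 CPM in young libraries. Of 8 radial glia markers 1 was higher and 4 lower (median -0.59), and of 6 myelin markers 0 were higher and 1 lower. Replicate I had lower sums for neurons, at 1421 CPM in old I and 1584 CPM in young I. Radial glia markers summed to 2690 and 3281 CPM there, against 5935 to 10143 CPM in replicates II to IV. Myelin markers summed to 4495 and 3533 CPM, within 3166 to 5166 CPM in replicates II to IV. Endothelium markers were higher in replicate I, at 317 and 185 CPM, against 93.6 to 141 CPM. So were 3 skeletal muscle markers, at 99.2 and 94.9 CPM, against 23.6 to 64.7 CPM. Red blood cell markers were lower, at 98.1 and 171 CPM, against 238 to 544 CPM. The 2 microglia markers (143 and 71.3 CPM, against 164 to 436 CPM) and 2 retina markers (27.9 and 30.1 CPM, against 48.3 to 81.1 CPM) were lower too. Of 17 markers of proliferating progenitors, 15 were lower in old fish of replicates II to IV and 0 higher, with sums of 257 to 288 CPM in old libraries, against 535 to 559 CPM in young libraries. Among the 60 cytosolic ribosomal protein genes, 50 were higher in old fish and 0 lower, with sums of 124536 to 141419 CPM in old libraries, against 83753 to 103127 CPM in young libraries. Their sums in replicate I were 79892 CPM in old I and 60753 CPM in young I.

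Replicate I stood apart at both ages, and the long genes showed it. They took 6.78% of the counts of old I, against 4.24%, 4.68% and 4.26% in old II, III and IV. In young I they took 7.04%, against 4.03%, 4.18% and 4.26% in young II, III and IV. The share in replicate I was therefore 1.54 times the mean of the other 3 libraries in old fish and 1.69 times in young fish. The 300 shortest expressed genes lay the other way, at 3.61% in old I and 2.97% in young I, against 4.65% to 5.53% in the other 6 libraries. For 161 of the 300 long genes (53.7%) both replicate I libraries lay above the other 6, against 30% of all expressed genes. For 34 long genes (11.3%) both lay below, against 34.9%. Within replicates II to IV the shares of the long genes overlapped between the ages, at 4.39% ± 0.246 in old libraries and 4.16% ± 0.118 in young libraries (SD, n = 3 each).

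**Figure D1:**
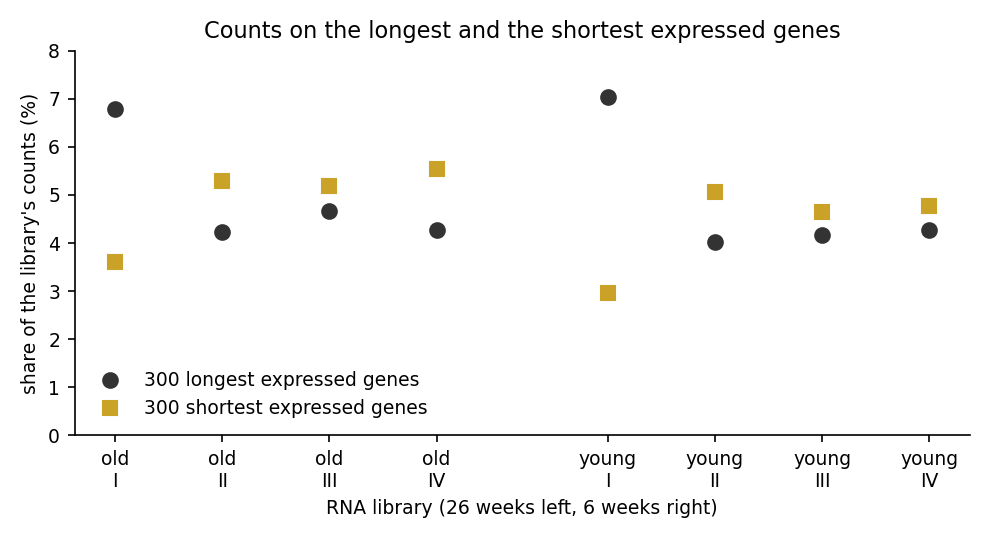
The share of each RNA library's counts that fell on the 300 longest (circles) and the 300 shortest (squares) expressed genes, in percent, with old libraries on the left and young libraries on the right. In replicate I of both ages the longest genes take 6.78% and 7.04%, above 4.03% to 4.68% in the other 6 libraries, and the shortest genes take less than elsewhere.

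For this reason the age comparison was made in replicates II to IV, and the replicate I pair was set apart. The spread of levels across the long genes was alike between the 2 replicate I libraries (Pearson's r of log2 levels 0.97 over 300 genes) and less alike between replicate I and the rest (0.83 to 0.89), while the other 6 libraries gave 0.94 to 0.99 among themselves. These correlations are across genes of the same tissue and carry no test. The labels name no batch, and what sets replicate I apart is not known here. Its lower or higher sums of several cell type markers were given above, and their part in its other differences was not tested.

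In replicates II to IV, more long genes were higher than lower in old brain. With edgeR at an adjusted p under 0.05, 88 long genes were higher and 22 lower in old fish, 110 of 300 (36.7%). Over all 16614 genes tested, 31.9% passed, with 16% higher and 15.9% lower. Among the 10042 expressed genes, 36.9% passed, with 22.5% higher and 14.4% lower. The share of long genes that passed was thus near that of the expressed genes. Levels below are CPM normalized by the trimmed mean of M-values (TMM), scaled among these 6 libraries for replicates II to IV and among all 8 for replicate I. Only in the last section are all levels scaled among all 8. Counts of genes with both replicate I libraries above or below the other 6 also use levels scaled among all 8. The median log2 fold change of the 300 was 0.17, with quartiles of -0.06 and 0.37, against 0.07 in the other expressed genes and -0.0048 over all genes tested. Of the 110, 9 moved by more than 1 on the log2 scale, 6 of them higher and 3 lower in old fish. The ages did not overlap in 132 long genes that were higher in all 3 old libraries (44%) and in 31 that were lower in all 3 (10.3%), against 31.8% and 21.4% of the expressed genes and 24.2% and 24.5% of all genes tested (48.6% in either direction).

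The balance of higher and lower calls depended on the scaling. With library totals alone, the median of all expressed genes moved by -0.13 on the log2 scale, and the calls among the long genes became 55 higher and 36 lower. With upper quartile scaling they were 73 higher and 27 lower. The calls of all expressed genes shifted too. With TMM 80% of called long genes were higher, against 61.0% of called expressed genes. With upper quartile scaling these shares were 73% and 50.1%, and with library totals 60.4% and 37.2%. Under both, the long genes stayed above the other expressed genes in their median, at 0.035 against -0.062 with library totals and at 0.10 against 0.00 with upper quartile scaling. The count also rested on 2 young libraries. Without young III, 45 long genes were higher and 9 lower, and without young IV, 36 were higher and 7 lower. The shares of all genes that passed without these libraries are not given here, so the drop shows no trait of the long genes.

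Beside genes of like level, the long genes lay slightly higher in old brain in their medians. The 300 were divided by their mean CPM into 5 groups of 60, and each group was set beside the other expressed genes in the same range. In the group with the lowest level, 10.2 to 35.1 CPM, 11.7% of long genes were higher and 16.7% lower in old fish, against 14.9% and 18.7% of the other genes. In the group with the highest level, 244 to 1219 CPM, 48.3% were higher and 3.33% lower, against 38.6% and 6.59%. Averaged over the 5 groups, 29.3% of long genes were higher, against 27.5% of other genes, and 7.33% were lower, against 12.1%. The median log2 fold change of the long genes exceeded that of their counterparts in all 5 groups, by 0.02 to 0.09 and on average by 0.05. Within single libraries, the gap between the median log2 level of the long genes and that of their counterparts, averaged over the 5 groups, was -0.15, -0.12 and -0.15 in old II to IV, against -0.29, -0.25 and -0.19 in young II to IV. The ages did not overlap, with mean gaps of -0.14 in old and -0.24 in young libraries and a pooled SD of 0.039 among libraries of 1 age. In replicate I the gap was 0.39 in old I and 0.40 in young I, above all the others. The matching used the mean CPM over all 8 libraries, replicate I included. The sign of the gaps, above 0 in replicate I and below 0 elsewhere, therefore follows in part from the matching. In replicates II to IV the long genes thus lay somewhat below their counterparts in level. The difference in median log2 fold change was 0.03 without old III and 0.03 without young II.

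**Figure D2:**
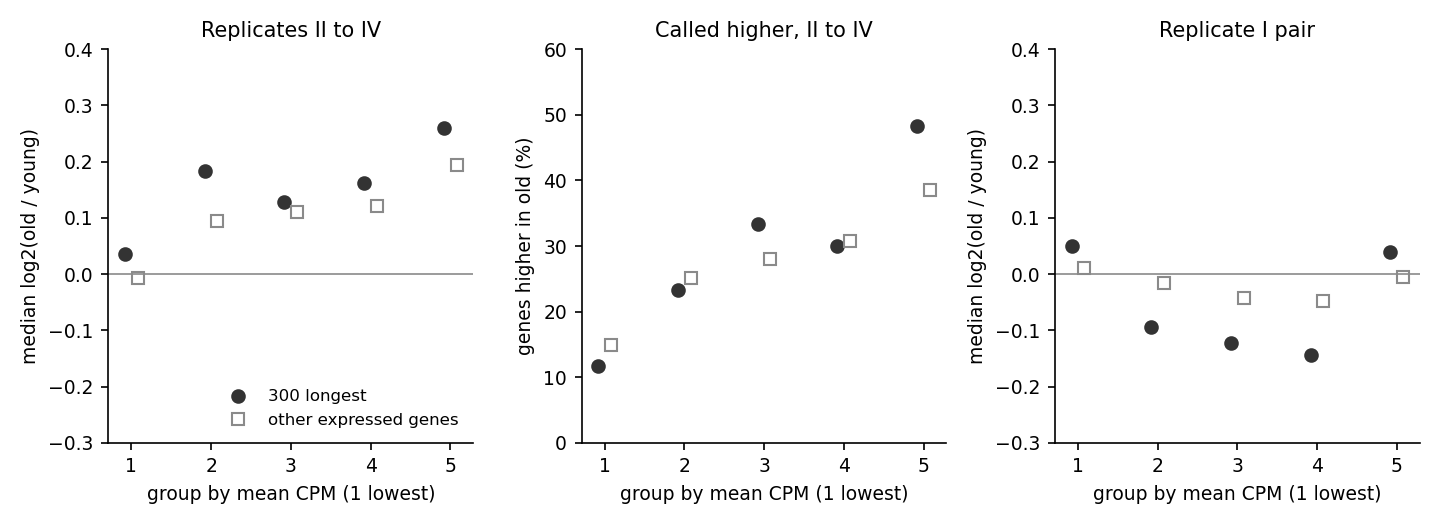
Long genes (filled circles, 60 per group) beside other expressed genes of the same CPM range (open squares), in 5 groups by mean CPM (1 lowest). The panels give the median log2 ratio of old over young in replicates II to IV, the percentage of genes higher in old at an edgeR adjusted p under 0.05, and the median log2 ratio in the replicate I pair. The long genes lie 0.02 to 0.09 above the others in the first panel, and below them in groups 2 to 4 of the last panel.

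Length went with the age change mainly through the short genes. When all expressed genes were divided into 10 equal groups by length, the median log2 fold change in replicates II to IV was -0.20 in group 1, the shortest (23 to 983 bases), 0.04 in group 3 and 0.13 in group 6, and then stayed between 0.13 and 0.15 up to group 10, which holds the long genes. The share of genes higher in old fish was 14.7% in group 1 and 29.1% in group 10, and the share lower was 32.6% and 8.16%. Across the 10042 expressed genes, Spearman's rank correlation between length and log2 fold change was 0.21. Within the 300 it was -0.07. Genes of 1 library share its depth and RNA quality, so these values are descriptions. In the replicate I pair the length groups were flat, between -0.04 and 0.04.

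The same length groups separated replicate I from the rest. Relative to replicates II to IV of the same age, replicate I had a median log2 difference of 0.29 in old fish and 0.56 in young fish in group 10. In group 1 it was -0.85 in old fish and -1.06 in young fish. The 300 long genes themselves stood at 0.45 in old fish and 0.70 in young fish. The part of this shift in the age results was not tested, and it moves with length at both ages.

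**Figure D3:**
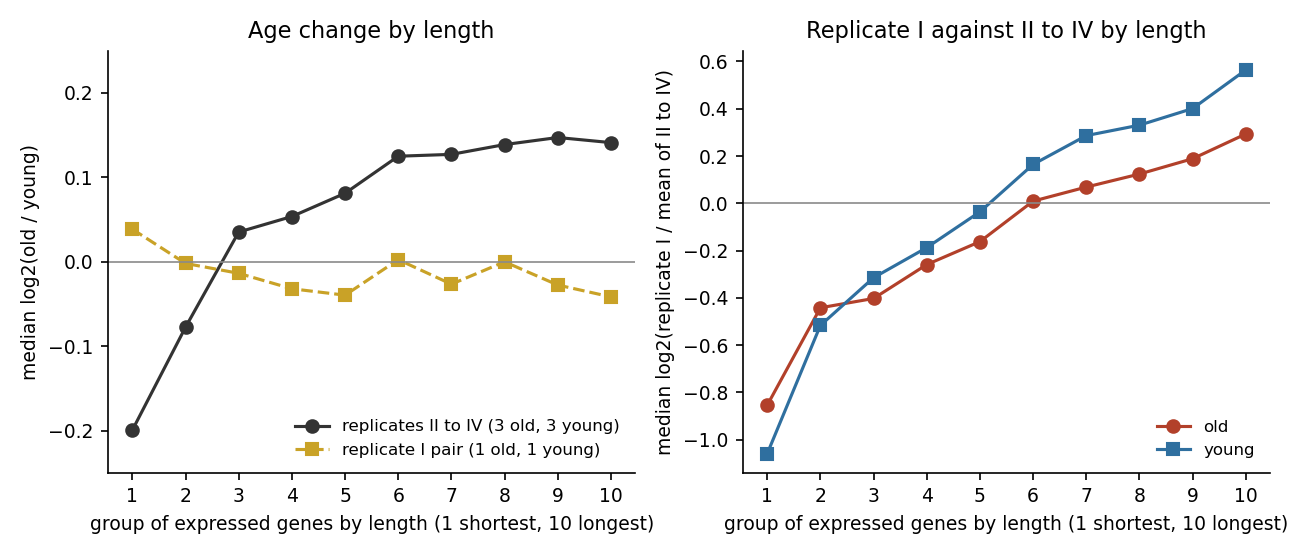
Medians over 10 groups of the expressed genes by length, the shortest at the left. The left panel gives the log2 ratio of old over young in replicates II to IV (circles) and in the replicate I pair (squares), and the right panel the log2 difference of replicate I from replicates II to IV in old and in young fish. The age change climbs from -0.20 to a plateau of 0.13 to 0.15 in replicates II to IV and is flat in the replicate I pair, while replicate I rises above the rest with length at both ages.

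Of the 5 longest genes, 2 changed with age in replicates II to IV, in opposite directions. Nfu_g_1_019261 had 10.6, 7.14 and 5.19 CPM in old libraries, against 2.99, 3.80 and 2.26 CPM in young libraries (log2 fold change 1.34, SE 0.31, edgeR adjusted p = 0.0122), without overlap, but lost the call without young IV. In replicate I it was several times more abundant at both ages, with 44.4 CPM in old I, against 27.5 CPM in young I. Nfu_g_1_019261 reached the limit of 10 CPM only through replicate I, so its higher level there follows from the choice. SYNE1, which encodes nesprin-1, a giant spectrin-repeat protein that ties the nucleus to the actin cytoskeleton, had 377, 313 and 333 CPM in old libraries, against 401, 436 and 449 CPM in young libraries (log2 fold change -0.33, SE 0.09, edgeR adjusted p = 0.0253). All 3 old libraries lay below all 3 young ones, and the replicate I pair ran the same way, with 439 CPM in old I, against 747 CPM in young I. Its call was lost without old IV, young III or young IV. The other 3 giants, Nfu_g_1_021820, Nfu_g_1_007978 and Nfu_g_1_012338, have no name here and did not pass the test, with log2 fold changes of 0.01, 0.05 and -0.14.

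Among the named long genes that passed, did not overlap and had the same sign in the replicate I pair, SNPH had the largest rise, followed by a gene matching the zinc finger protein ZNF638 (described with the chromatin regulators) and by AHNAK2, SPTB and MAP1A. SNPH (Nfu_g_1_015502) encodes syntaphilin, which docks mitochondria to axonal microtubules. It had 217, 286 and 217 CPM in old libraries, against 116, 106 and 103 CPM in young libraries (log2 fold change 1.15, SE 0.12, edgeR adjusted p = 0.000478). The replicate I pair had 577 CPM in old I, against 378 CPM in young I, higher in old fish again. MAP1A, a microtubule-associated protein of dendrites, was matched by 2 long genes. Nfu_g_1_014070 had 547, 681 and 559.6 CPM in old libraries, against 336, 339 and 324 CPM in young libraries (log2 fold change 0.84, SE 0.10, edgeR adjusted p = 0.000831), and Nfu_g_1_022061 had 1041, 1292 and 1188 CPM in old libraries, against 820.3, 829 and 778 CPM in young libraries (log2 fold change 0.54, SE 0.10, edgeR adjusted p = 0.00450). Both were higher in every old library. SPTB, a beta-spectrin of the membrane skeleton, had 45.5, 44.2 and 40.6 CPM in old libraries, against 27.3, 21.97 and 21.9 CPM in young libraries (log2 fold change 0.87, SE 0.12, edgeR adjusted p = 0.00159). SPTB is known best from red blood cells, whose 8 markers summed to 238 to 240 CPM in old libraries, against 279 to 544 CPM in young libraries, the opposite direction, with 4 of 6 tested lower, 0 higher and 1 of the 8 at 0. The part of blood in the SPTB result was not tested. AHNAK2, a giant scaffold protein, was low in replicates II to IV, with 8.97, 9.52 and 6.72 CPM in old libraries, against 5.99, 3.72 and 2.65 CPM in young libraries (log2 fold change 1.02, SE 0.30, edgeR adjusted p = 0.0291). In replicate I it had 36.6 CPM in old I, against 11.2 CPM in young I. AHNAK2 too reached the limit of 10 CPM only through replicate I, so its higher level there follows from the choice. The AHNAK2 call was lost without old II, old III, young III or young IV.

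In the list of spectrins and giant cytoskeletal linkers, 4 of 7 long genes were higher in old fish (AHNAK2, SPTB and both MAP1A genes) and 1 was lower (SYNE1). Their median log2 fold change was 0.54, against 0.03 in the 13 shorter expressed genes of the list, of which 4 were higher and 3 lower. The plectin pair did not pass, with log2 fold changes of 0.27 and -0.18 for the cytoskeletal linker PLEC.

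Ion channels formed the largest group of named long genes, and most of those that passed were higher in old brain. Of 12, 7 were higher and 1 lower, with a median log2 fold change of 0.46. Of the 14 neuron markers given above, 7 were lower and 2 higher, while their sums overlapped between the ages. Of the 8 neuron markers among the expressed genes, 3 were lower and 2 higher. The part of neurons in the results of the channel and synaptic genes was not tested. Of the 43 shorter expressed genes of the list, 13 were higher and 5 lower, with a median of 0.22. UNC80, a subunit of the sodium leak channel complex that sets the resting excitability of neurons, had 124, 167 and 128 CPM in old libraries, against 88.8, 86.6 and 76.2 CPM in young libraries (log2 fold change 0.73, SE 0.12, edgeR adjusted p = 0.00322). SCN7A, of the voltage-gated sodium channel family, had 154, 237 and 171 CPM in old libraries, against 123.4, 114 and 110.3 CPM in young libraries (log2 fold change 0.69, SE 0.15, edgeR adjusted p = 0.00785). KCND2 encodes a potassium channel that carries the A-type current of dendrites. It had 316, 374 and 321 CPM in old libraries, against 225, 223 and 199.8 CPM in young libraries (log2 fold change 0.64, SE 0.09, edgeR adjusted p = 0.00193). KCNMA1, the large-conductance calcium-activated potassium channel, had 162, 211 and 191 CPM in old libraries, against 128, 119.9 and 130.3 CPM in young libraries (log2 fold change 0.57, SE 0.10, edgeR adjusted p = 0.00422). In UNC80, SCN7A, KCND2 and KCNMA1 alike every old library lay above every young library, and the replicate I pair gave log2 ratios of 0.11, 0.32, 0.06 and 0.22 in the same order. The glutamate receptor subunit GRIA4, the inositol trisphosphate receptor ITPR3 and the calcium channel CACNA1E were the other 3 that were higher, with log2 fold changes of 0.55, 0.53 and 0.40. The ryanodine receptors RYR2 and RYR3, which release calcium from the endoplasmic reticulum, stood at 0.00 and 0.01.

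CACNA1A (Nfu_g_1_007075), the pore of the P/Q-type calcium channel that triggers transmitter release, was the long channel gene that was lower. It had 9.93, 6.35 and 9.78 CPM in old libraries, against 13.6, 29.2 and 28.8 CPM in young libraries (log2 fold change -1.45, SE 0.30, edgeR adjusted p = 0.00714). The replicate I pair ran the other way, with 29.4 CPM in old I, against 17.3 CPM in young I, and the difference between the age changes did not pass the test (log2 difference 2.11, edgeR adjusted p = 0.177). The long channel genes also stood higher in replicate I. Both replicate I libraries lay above the other 6 for 8 of the 12, against 15 of the 43 shorter channel genes. Among all long genes this held for 53.7%, and among all expressed genes for 30%. The median log2 difference of replicate I from the rest was 1.47 in old fish and 1.48 in young fish, against 0.12 and 0.40 for the shorter channel genes.

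Postsynaptic scaffolds were the list in which every long gene was higher, although 2 of its 4 long genes match an exchange factor rather than a scaffold. DLGAP2 and SHANK2, scaffold proteins of the postsynaptic density, and 2 genes matching TRIO, a guanine nucleotide exchange factor, made up the 4. SHANK2 had 80.5, 107 and 81.2 CPM in old libraries, against 62.8, 63.3 and 59.1 CPM in young libraries (log2 fold change 0.54, SE 0.12, edgeR adjusted p = 0.00945), a call lost without young IV. The TRIO genes had 392, 429 and 383 CPM (Nfu_g_1_001792) and 376, 426 and 411 CPM (Nfu_g_1_012957) in old libraries, against 305, 325 and 318 CPM and 296, 300.3 and 317 CPM in young libraries. Their log2 fold changes were 0.35 (SE 0.08) and 0.41 (SE 0.08), with edgeR adjusted p of 0.0122 and 0.00661. The call of Nfu_g_1_001792 was lost without young IV and with library totals alone. DLGAP2 changed least (log2 fold change 0.31, SE 0.10, edgeR adjusted p = 0.0440) and lost its call under 8 of the 12 other settings. Of the 12 shorter genes of the list, 2 were higher and 3 lower, with a median log2 fold change of 0.00 against 0.38 for the long genes. In all 4 long genes both replicate I libraries lay above the rest, against 5 of the 12 shorter ones. Among all long genes this held for 53.7%, and among all expressed genes for 30%.

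On the presynaptic side 1 of 3 was higher, while of the 12 shorter genes of that list 2 were higher and 3 lower. UNC13A, which primes synaptic vesicles for release, had 165, 202 and 168 CPM in old libraries, against 117, 141 and 132 CPM in young libraries (log2 fold change 0.45, SE 0.11, edgeR adjusted p = 0.0122), a call lost without young IV. BSN, the active zone scaffold bassoon, and the synaptic scaffold CASKIN1 did not pass, with log2 fold changes of -0.39 and 0.06. BSN ranged from 24.7 to 49.5 CPM in old libraries and from 40.8 to 60.3 CPM in young libraries, so that the ages overlapped.

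The LDL receptor family and matrix list went both ways, with 2 of 4 long genes higher and 1 lower. Of its 23 shorter genes, 1 was higher and 3 lower. LRP2, the endocytic receptor megalin of choroid plexus and other epithelia, had 51.5, 77.2 and 46.6 CPM in old libraries, against 33.3, 34.9 and 36.3 CPM in young libraries (log2 fold change 0.74, SE 0.17, edgeR adjusted p = 0.0115). AGRN, the heparan sulfate proteoglycan agrin, had 470.1, 557 and 448 CPM in old libraries, against 394, 362 and 353 CPM in young libraries (log2 fold change 0.41, SE 0.10, edgeR adjusted p = 0.0142), but 299 CPM in old I, against 375 CPM in young I, and it lost the call without young III or young IV. LRP1 did not pass, at 440.3 ± 17.3 CPM in old libraries, against 389 ± 9.35 CPM in young libraries (SD, n = 3 each). RELN encodes reelin, a secreted glycoprotein that guides neuronal positioning. It was lower in old brain, with 22.1, 19.4 and 25.3 CPM in old libraries, against 33.9, 44.9 and 43.6 CPM in young libraries (log2 fold change -0.87, SE 0.15, edgeR adjusted p = 0.00340). All 3 old libraries lay below all 3 young ones. The replicate I pair differed little, with 19.6 CPM in old I, against 20.9 CPM in young I. These lay within the old values given here, whose scaling is among 6 libraries.

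Among chromatin and transcription regulators, 3 of 11 long genes were higher and 1 lower, while 7 of the 86 shorter ones were higher and 20 lower. The median log2 fold change was 0.07 in the long genes and -0.15 in the shorter ones, but the 0.07 turned to -0.00060 with upper quartile scaling and -0.063 with library totals alone. TNRC18, a large chromatin-bound protein, had 188, 214 and 193 CPM in old libraries, against 128, 125 and 119.6 CPM in young libraries (log2 fold change 0.68, SE 0.08, edgeR adjusted p = 0.000961). KMT2A, a histone H3 lysine methyltransferase, had 176, 178 and 161 CPM in old libraries, against 129, 116 and 129.5 CPM in young libraries (log2 fold change 0.46, SE 0.08, edgeR adjusted p = 0.00460). ZNF638, a zinc finger protein that binds DNA and RNA, was matched by 2 genes. Nfu_g_1_009520 had 16.3, 15.6 and 19.8 CPM in old libraries, against 6.99, 8.20 and 8.43 CPM in young libraries (log2 fold change 1.13, SE 0.17, edgeR adjusted p = 0.00216). Nfu_g_1_009609 did not pass (log2 fold change 0.38, edgeR adjusted p = 0.0826). ZFHX3, a homeobox transcription factor of neurons, was the one that was lower, with 77.3, 67.9 and 76.3 CPM in old libraries, against 92.9, 96.1 and 97.9 CPM in young libraries (log2 fold change -0.37, SE 0.08, edgeR adjusted p = 0.0105). Replicate I had less of it at both ages, with 39.5 CPM in old I, against 57.6 CPM in young I, and its call was lost without young IV.

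The largest fall of a named long gene, that of SMG1, belonged to RNA surveillance, and large kinases went both ways. SMG1, the kinase that starts nonsense-mediated decay, had 13.1, 6.35 and 11.99 CPM in old libraries, against 22.1, 32.1 and 37.0 CPM in young libraries (log2 fold change -1.52, SE 0.27, edgeR adjusted p = 0.00387). The replicate I pair was level with the low old values and ran the other way, with 11.4 CPM in old I, against 7.004 CPM in young I. CIT, citron kinase, acts in the last step of cell division. It had 73.3, 60.7 and 72.8 CPM in old libraries, against 85.4, 104 and 122.99 CPM in young libraries (log2 fold change -0.59, SE 0.14, edgeR adjusted p = 0.0110), and 160.4 CPM in old I, against 181 CPM in young I. Of the 17 progenitor markers, 15 were lower in the same old libraries, as given above, and none of the markers was at 0. Their part in the CIT result was not tested, and the call was lost without young IV. WNK1, a kinase that controls chloride transporters, was higher, with 126, 139 and 103 CPM in old libraries, against 89.3, 82.3 and 85.7 CPM in young libraries (log2 fold change 0.51, SE 0.11, edgeR adjusted p = 0.00857). ATM, the kinase of the DNA break response, did not pass, at 31.3 ± 4.32 CPM in old libraries, against 25.6 ± 2.85 CPM in young libraries (SD, n = 3 each). Of the 4 long genes in the list of DNA repair and giant kinases, 1 was therefore higher and 2 lower, while of its 8 shorter genes 1 was higher and 2 lower. Of the 3 in the list of RNA processing, SMG1 and RBM14-RBM4 were lower. The one that was higher, TNRC18, is the chromatin-bound protein already counted with the chromatin regulators. The 55 shorter genes of that list had 6 higher and 15 lower.

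The remaining named falls came from several cell functions. CLTC, the clathrin heavy chain of coated vesicles, had 98.3, 79.7 and 110.4 CPM in old libraries, against 127, 160.5 and 175 CPM in young libraries (log2 fold change -0.68, SE 0.14, edgeR adjusted p = 0.00786). ALG9, a mannosyltransferase of N-glycan assembly, had 9.06, 5.89 and 7.23 CPM in old libraries, against 10.1, 13.7 and 13.2 CPM in young libraries (log2 fold change -0.73, SE 0.21, edgeR adjusted p = 0.0274), and lost the call without old IV, young III or young IV. ANKLE1, an endonuclease with ankyrin repeats, had 18.6, 19.3 and 17.005 CPM in old libraries, against 31.4, 24.7 and 26.7 CPM in young libraries (log2 fold change -0.59, SE 0.13, edgeR adjusted p = 0.0105). Nfu_g_1_022469, matched to the human fusion transcript RBM14-RBM4 and called rbm4.3 in fish, encodes an RNA-binding splicing regulator. It had 122, 178 and 114 CPM in old libraries, against 210.3, 184 and 188 CPM in young libraries (log2 fold change -0.49, SE 0.15, edgeR adjusted p = 0.0347), and lost the call without any 1 of the libraries old II, old IV, young II, young III or young IV. For all 4 genes the old libraries stayed under the young ones, in replicates II to IV and in the replicate I pair.

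**Figure D4:**
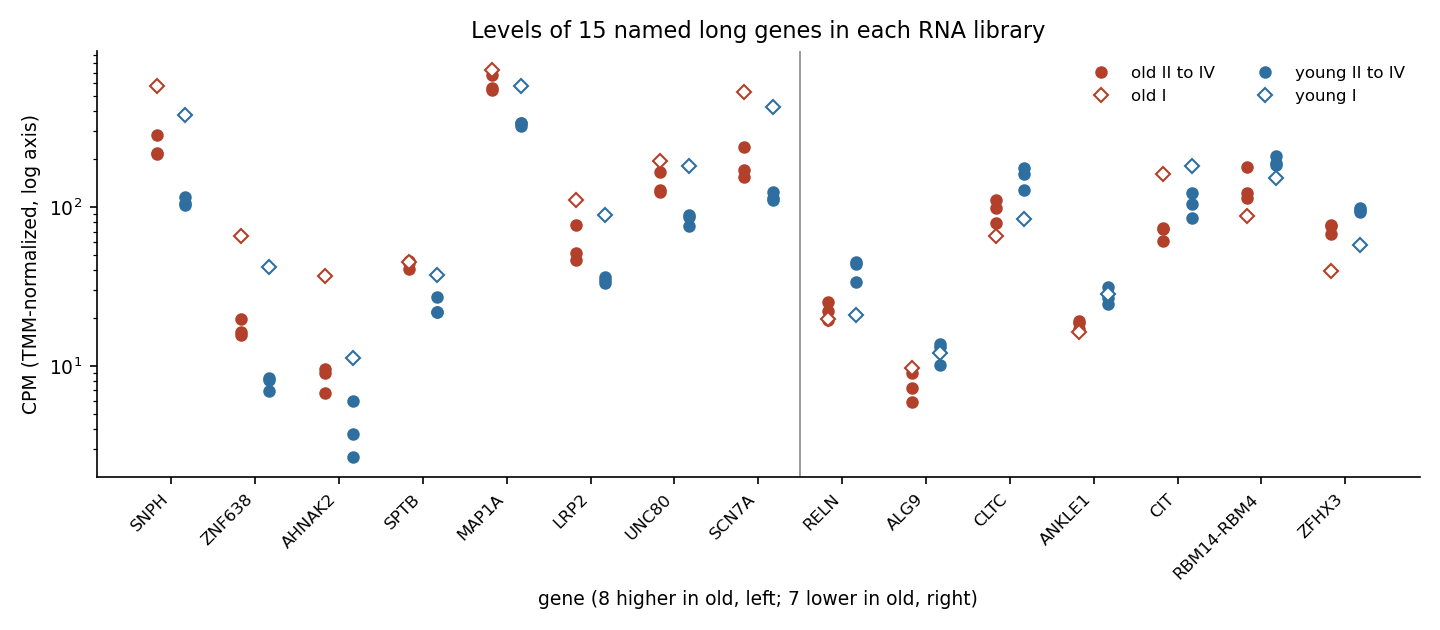
TMM-normalized CPM on a log axis of the 8 named long genes with the largest rises (left) and 7 of the 8 with the largest falls (right), among those that passed in replicates II to IV, did not overlap and kept their direction in the replicate I pair. Old libraries stand left of young libraries for each gene, filled circles are replicates II to IV and open diamonds replicate I. For SNPH, ZNF638, AHNAK2, LRP2 and SCN7A both diamonds lie above all circles, but AHNAK2 entered the choice only through replicate I.

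Long genes of several other lists showed little change with age. In the list of exchange factors and GTPase activators, 2 of 8 were higher. The 2 TRIO genes, also exchange factors and both higher, were counted with the postsynaptic scaffolds instead. DOCK3, a Rac activator of neurons, had 262 ± 13.8 CPM in old libraries, against 211 ± 11.2 CPM in young libraries (SD, n = 3 each, log2 fold change 0.31, edgeR adjusted p = 0.0188), and RALGAPA2, which switches off Ral GTPases, had 92.5 ± 2.15 CPM in old libraries, against 78.0 ± 1.66 CPM in young libraries (log2 fold change 0.25, edgeR adjusted p = 0.0340). The DOCK3 call was lost in 4 and the RALGAPA2 call in 9 of 12 other settings. Of the 44 shorter genes of that list, 17 were higher and 3 lower. Of the 9 adhesion receptors, 1 was higher, a protocadherin whose best match is PCDH11Y (log2 fold change 0.28, edgeR adjusted p = 0.0404), a call lost in 9 of 12 other settings. The teneurins TENM2, TENM3 and TENM4 stood at 0.26, 0.04 and 0.15, the semaphorin receptor PLXNA1 at 0.19 and the giant cadherin DCHS1 at 0.21.

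No long motor or ubiquitin ligase gene passed with edgeR, 0 of 3 and 0 of 4, nor with DESeq2. Of these, DYNC1H1 and RNF213 had an unadjusted p under 0.05 (0.0235 and 0.0161). Cytoplasmic dynein's heavy chain DYNC1H1, which carries cargo toward the cell body along axons, had 613, 663 and 594 CPM in old libraries, against 731, 703 and 741 CPM in young libraries (log2 fold change -0.22, SE 0.08, edgeR adjusted p = 0.0656). Its ages did not overlap, and it passed with upper quartile scaling, with library totals alone and without old III. The myosins MYO9A and MYO16 stood at 0.17 and -0.01. The ubiquitin ligases MYCBP2, HUWE1 and BIRC6 stood at 0.01, -0.15 and -0.40, and RNF213 at 0.29 (edgeR adjusted p = 0.0503), which passed with RLE size factors, the median-ratio scaling. Of these 7 genes, MYO9A and DYNC1H1 of the motors and RNF213 and HUWE1 of the ligases had both replicate I libraries above the rest. Among all long genes this held for 53.7%, and among all expressed genes for 30%.

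Genes without a name held 51 of the 88 rises and 8 of the 22 falls, among 184 long genes. Nfu_g_1_015287 had 18.8, 19.2 and 18.8 CPM in old libraries, against 9.29, 10.99 and 7.49 CPM in young libraries (log2 fold change 1.03, SE 0.17, edgeR adjusted p = 0.00314), and 34.8 CPM in old I, against 16.6 CPM in young I, so that its change was alike in both sets. Of the falls, Nfu_g_1_016547 had 9.16, 4.87 and 7.06 CPM in old libraries, against 9.67, 14.1 and 17.9 CPM in young libraries (log2 fold change -0.97, SE 0.28, edgeR adjusted p = 0.0264), a call lost without old IV, young III or young IV. Nfu_g_1_003348 had 64.6, 47.6 and 57.0 CPM in old libraries, against 76.6, 106 and 107 CPM in young libraries (log2 fold change -0.77, SE 0.15, edgeR adjusted p = 0.00573).

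Where 2 long genes shared a human match, they did not always move together. Both genes were higher for MAP1A and for TRIO. For SPEG, a muscle-type giant kinase, Nfu_g_1_003650 was higher (log2 fold change 0.52, edgeR adjusted p = 0.00442) and Nfu_g_1_014306 did not pass (0.21, edgeR adjusted p = 0.187). The ARHGAP21 genes stood at 0.28 and -0.25, neither passing. How reads shared between such copies were counted is not given in the sources used here, so the split within a pair is uncertain.

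In the replicate I pair, the long genes showed no rise as a group. The median log2 ratio of old over young was -0.05, with quartiles of -0.26 and 0.16, and 131 of 300 (43.7%) were higher in old I, against 48.5% of all expressed genes. Against genes of like CPM the long genes were lower by 0.03 on average. With 1 library per age this has no test. Of the 88 long genes that were higher in replicates II to IV, 62 (70.5%) had the same sign in the replicate I pair, against 82.1% of the other expressed genes that were higher. Of the 22 that were lower, 17 did (77.3%), against 78.4%. Spearman's rank correlation between the 2 sets of age changes was 0.48 over the 300 genes and 0.52 over all expressed genes. The 3 long genes with a called log2 fold change below -1 in replicates II to IV, SMG1, CACNA1A and Nfu_g_1_007312, were all higher in old I than in young I. Nfu_g_1_007312 was picked out after its values were seen. It had 7.91, 2.72 and 5.95 CPM in old libraries, against 8.06, 14.1 and 17.5 CPM in young libraries, and 15.5 CPM in old I, against 12.3 CPM in young I.

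**Figure D5:**
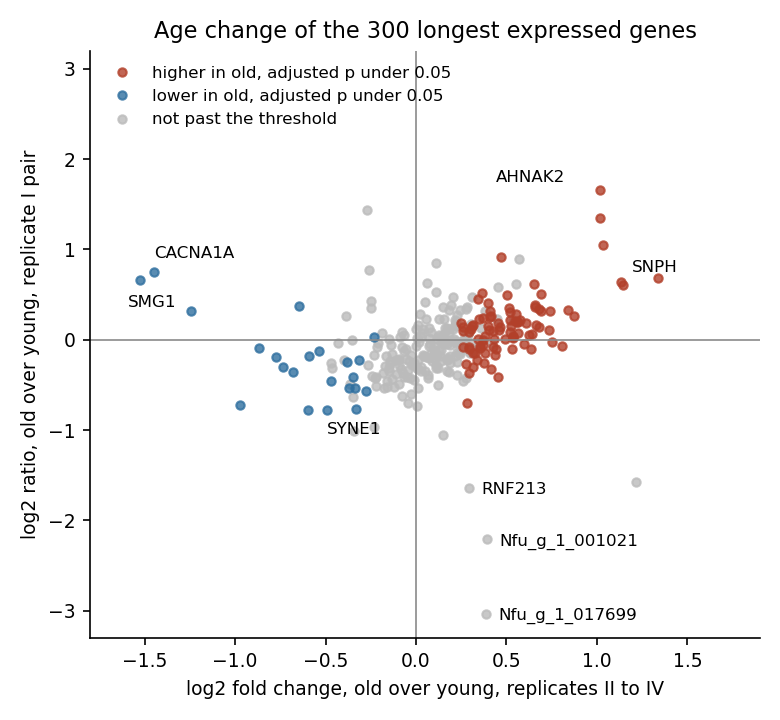
Each point is 1 of the 300 long genes, with its log2 fold change of old over young in replicates II to IV (3 libraries per age) on the x axis and its log2 ratio in the replicate I pair (1 library per age) on the y axis. Most of the 88 genes higher in old (62) lie above the horizontal line, and RNF213, Nfu_g_1_001021 and Nfu_g_1_017699 are among the 4 lowest points.

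The age change was then compared between the 2 sets by a test of the difference, in which each lone replicate I library was assumed to vary like the others. At an edgeR adjusted p under 0.05, 3 long genes differed, all lower in the replicate I pair, and 0 were higher. Of all 16759 genes tested 0.173% differed, 0.131% lower and 0.0418% higher. They were named after their values were seen. RNF213, a giant ubiquitin ligase induced by interferon, had 56.8, 58.6 and 56.8 CPM in old II to IV and 67.7 CPM in old I, against 42.2, 45.6 and 52.5 CPM in young II to IV and 212 CPM in young I. The difference was -2.04 on the log2 scale (edgeR adjusted p = 0.00284). Nfu_g_1_017699 had 24.97, 22.1 and 24.4 CPM in old II to IV and 65.9 CPM in old I, against 16.4, 17.2 and 21.1 CPM in young II to IV and 543 CPM in young I (difference -3.53, edgeR adjusted p = 1.99e-05). Nfu_g_1_001021 had 50.6, 48.4 and 31.5 CPM in old II to IV and 74.5 CPM in old I, against 20.3, 36.8 and 42.1 CPM in young II to IV and 347 CPM in young I (difference -2.72, edgeR adjusted p = 0.0285). All 3 rest on high levels in the single library young I, and the call of Nfu_g_1_001021 was lost under each other scaling.

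With all 8 libraries in a single comparison, 0 of the 300 long genes passed with edgeR, against 0.34% of all genes tested (57 of 16759). An unadjusted p under 0.05 was found for 22 of the 300. This was a smaller share than the 1318 of 10042 expressed genes and the 2517 of 16759 genes tested. DESeq2 called 3, ANKLE1 as lower, and Nfu_g_1_004090 and Nfu_g_1_007642 as higher. With the replicate number as a block, 40 were higher and 5 lower, and 42 of these 45 passed in the same direction in replicates II to IV. With a single term for replicate I, 66 were higher and 12 lower, and 71 of these 78 passed in the same direction there. Both fits contain the 6 libraries of replicates II to IV, so this overlap is no separate support. Without young I, 8 were higher and 2 lower, among them SNPH, SPTB and MAP1A (higher) and SMG1 and RELN (lower). The shares of all genes tested that passed under these alternatives are not given here. The 0.34% belongs to the first edgeR comparison alone, so these counts show no trait of the long genes. The median log2 fold change of the long genes was 0.16 over all 8 libraries, close to the 0.17 of replicates II to IV, while the median standard error was 0.27 against 0.11. In the other expressed genes the median was 0.11 over all 8 libraries, against 0.07 in replicates II to IV, so the gap to the long genes narrowed.

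The footprint libraries said little about the long genes. Only 19 of the 300 could be matched, by their fish gene symbol, and 14 of these were above 0 in any library. On the TPM scale, on which every library adds up to 1000000, the matched genes summed to 40.5, 52.3, 43.0 and 6.78 TPM in old I to IV, against 36.7, 53.9, 25.03 and 0 TPM in young I to IV. Outside the 3 most abundant symbols, which held 94.7% of TPM on average, this was 0.0614% to 0.122% in old libraries and 0 to 0.123% in young libraries. DYNC1H1, the most often detected, had 10.6, 9.66, 18.0 and 1.02 TPM in old I to IV, against 6.56, 11.8 and 5.75 TPM in young I to III, and was listed at 0 in young IV. The ages overlapped. Old libraries detected 1379 to 2605 symbols and young libraries 262 to 1490, and the part of this depth gap in any age difference was not tested. With limma on log2(TPM + 1), 0 of the 11 long genes whose mean reached 1 TPM passed, at an adjusted or an unadjusted p under 0.05. Of all 5200 genes tested 0 passed (0%), and 86 had an unadjusted p under 0.05.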

How the data were processed

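Brain RNA was sequenced in 8 libraries and ribosome footprints in 8 others, 4 per age, grouped by the age label. For RNA, the authors deposited raw counts of reads per gene. STAR 2.4.1d, featureCounts 1.4.6-p4 and bcl2fastq 1.8.4 stand in the submitters' processing notes. The labels name the TruSeq RNA kit v2, which does not mark strand, so reads of a gene and an overlapping antisense gene cannot be told apart. The genome build of these counts and the treatment of shared reads are not given in the sources used here, since the build in the study's RNA methods goes with another library kit and aligner. The authors also deposited RPKM values of the same genes. These proved to be scaled with the library totals recycled down the table, so that 87.5% of the values carry another library's total, by a ratio of up to 1.46. The implied length of a gene varied between libraries with a median coefficient of 17.6% for own totals and 0.00243% for recycled totals. RPKM served only for lengths. Footprint values were deposited by the authors as FPKM, from RSEM 1.3.1 after mapping to the genome NotFur1 with STAR. They were rescaled to TPM, and their depth is not known here. The tables' columns were all mapped to samples.

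Counts were tested with edgeR 4.0.16 (TMM, filterByExpr, quasi-likelihood test), old over young, with Benjamini-Hochberg adjustment over all genes tested and a threshold of 0.05, in replicates II to IV, in all 8 libraries, and for the difference between the replicate I pair and the rest. The log2 ratio of the replicate I pair has a prior of 0.5 CPM. Footprints were tested with limma 3.58.1 on log2(TPM + 1), leaving out genes whose mean was under 1 TPM. R 4.3.3 was used, and the fits were tested on simulated data. Other scalings, no filter on low counts, DESeq2 1.42.0, the replicate number as a block, each library left out and other limits of choice were tried as alternatives.

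The genes, lists and tests were chosen with earlier results of these data known. The genes named are the 5 longest; the 8 named rises and 8 named falls that were largest among genes past the threshold, without overlap and with the same sign in the replicate I pair (1 of these falls is not reported here); the 2 largest rises and falls without a name under the same conditions; and up to 4 genes of lowest p per function list with at least 3 long genes. Whether replicate numbers pair libraries was checked by correlating the deviations of same-numbered libraries from their age means. Over all 8 libraries the correlations were 0.88, 0.71, 0.29 and 0.74 for I to IV. Replicate I enters both age means there, which raises these values whatever the numbering, so they do not show pairing by number. Only 4 libraries were closest to their own number, and the blocked fit is given as an alternative. Within replicates II to IV they were -0.27, -0.25 and 0.27, so the numbers do not pair these libraries. Shares of counts are known within counting error to about 0.02 percentage points.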

Additional observations from a re-analysis of the deposited data

Results flagged for a closer look

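The share of counts on the long genes was 7.04% in young I, against 4.03% to 4.26% in the other 3 young libraries, a gap to the nearest library of 0.92 of the whole range. In old fish the same gap, for old I at 6.78%, was 0.83 of the range, just short of the limit for 4 libraries. Chance sets about 1 group in 20 apart by this measure, and 4 groups were looked at. The age change of 3 long genes differed between the replicate I pair and replicates II to IV. The log2 difference was -2.04 for RNF213, -2.72 for Nfu_g_1_001021 and -3.53 for Nfu_g_1_017699. In all 3 young I alone lay far above the other 7 libraries. In replicates II to IV all old libraries lay above all young ones for RNF213 and Nfu_g_1_017699, while the ages overlapped for Nfu_g_1_001021.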

How the results depend on the processing

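Of the 300 long genes, 110 passed in replicates II to IV, and 43 to 102 did when single libraries were left out, the lowest without young IV (43) and young III (54). The count was 53 for the 150 longest genes and 230 for the 600 longest, which holds other numbers of genes. The median log2 fold change of 0.17 was 0.10 with upper quartile scaling, 0.035 with library totals and 0.10 to 0.20 without single libraries, the lowest without old III. With all 8 libraries the count of 0 became 3 with DESeq2, 45 with the replicate block, 78 with a term for replicate I, 2 among the 600 longest, and 0 to 10 without single libraries, 10 without young I. The replicate block left 78 in replicates II to IV (65 higher, 13 lower), with 2 of 6 libraries closest to their own number, and the calls of SYNE1, DLGAP2, ALG9, RBM14-RBM4, RALGAPA2, PCDH11Y and Nfu_g_1_016547 were among those lost. The footprint count of 0 kept under every alternative run, the block included; a minimum of 10 TPM left 0 long genes to test. No other count or median moved beyond its limit, and of the named genes none changed sign with a call. The causes were not tested. The shares of all genes that passed without single libraries, with the block or with a term for replicate I are not given here. Alternatives for the median, and for genes of like CPM the block and single libraries, were chosen after seeing the data.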

Other observations

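RNF213 was not alone in its pattern. Over all genes tested, the age change was lower in the replicate I pair than in replicates II to IV for 22 genes and higher for 7 (edgeR adjusted p under 0.05). Several of the 22 are named genes of the antiviral response, picked out here after their values were seen. All levels in this section are scaled among all 8 libraries, unlike those of RNF213 in replicates II to IV given above. IFIH1, a sensor of double-stranded RNA, had 31.8, 26.2 and 31.0 CPM in old II to IV and 77.6 CPM in old I, against 20.8, 18.7 and 24.7 CPM in young II to IV and 207 CPM in young I. ZNFX1, an antiviral helicase, had 52.1, 68.0 and 40.6 CPM in old II to IV and 51.8 CPM in old I, against 27.2, 35.3 and 31.8 CPM in young II to IV and 207 CPM in young I. RSAD2, which encodes the interferon-induced enzyme viperin, had 17.2, 17.9 and 16.2 CPM in old II to IV and 9.30 CPM in old I, against 7.01, 9.37 and 11.7 CPM in young II to IV and 39.5 CPM in young I. DHX58 and TLR3 were also among the 22. In each of these 5 genes young I was the highest of the 8 libraries. Of the 7 on the other side, GH1, growth hormone of the pituitary, had 0.773, 0.372 and 1.56 CPM in old II to IV and 8.04 CPM in old I, against 27.1, 49.8 and 64.2 CPM in young II to IV and 0 CPM in young I.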
